A study of Homo sapiens with 12 samples.

Results

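The transforming growth factor β (TGF-β) family genes TGFB1, TGFB2, TGFBR2, BMP4, BMP6 and BMP7 and the inhibitor of DNA binding genes ID1, ID2 and ID3 were followed across 4 groups of cultured breast cancer cells. They are 9 of the 29744 gene entries in the deposited count table, and were chosen by name, with earlier results of these data known. MB157 is an established triple-negative breast cancer cell line with active NOTCH1, and MB157R is its derivative, grown for 25 weeks in 1 µM of the γ-secretase inhibitor (GSI) LY3039478, which blocks the release of the intracellular domain of NOTCH1 (N1-ICD). Each group had 3 libraries of polyadenylated RNA. The control group MB157 iEV carried an empty doxycycline-inducible vector, MB157 iSOX2 an inducible SOX2, MB157R iEV the empty vector in the resistant cells, and MB157R iN1-ICD an inducible DeltaE form of NOTCH1, from which N1-ICD is cut. All 4 groups, the empty-vector cells included, carried a lentiviral construct and received doxycycline, at 1 µg/ml by the labels, for 72 h. The sources do not say whether GSI was in the medium when RNA was taken from MB157R cells, and a single resistant line stood for resistance.

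TGF-β ligands (TGFB1, TGFB2) are secreted in a latent form, are freed outside the cell, and bind TGFBR2, the type II receptor, which activates the type I receptor TGFBR1 and then SMAD2 and SMAD3. Bone morphogenetic proteins (BMP4, BMP6, BMP7) bind other receptor pairs and activate SMAD1, SMAD5 and SMAD9. The ID genes are textbook targets of BMP signaling; ID proteins lack a DNA-binding region and hold E proteins away from DNA, by which they restrain differentiation. In breast epithelium and carcinoma, TGF-β signaling is known for growth arrest and for epithelial-mesenchymal transition (EMT).

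Levels below are CPM (counts scaled to library size), scaled between libraries by the trimmed mean of M-values (TMM) over all 12 libraries. Library totals lay between 32773820 and 49055208 estimated counts, so that 3 counts over the 3 libraries of a group, taken as the floor, came to between 0.0226 and 0.0260 CPM, for counting error only. The induced genes were checked first: SOX2 was at 308 ± 23.3 CPM (SD, n = 3) in MB157 iSOX2 against 7.10 ± 0.544 in MB157 iEV, and NOTCH1 at 2322 ± 486 CPM in MB157R iN1-ICD against 92.4 ± 8.39 in MB157R iEV. Counts per gene do not separate transcripts of the constructs from those of the cells' own genes. The epithelial markers EPCAM, KRT8, KRT18, KRT7, CDH1, TFAP2A and TFAP2C were present in every group, with sums of group means between 1895 and 4947 CPM. Of the markers expected to be low in triple-negative cells, ESR1 was at 0.235 to 1.86 CPM and PGR at 1.65 to 5.01. ERBB2, the gene of HER2, was not low in RNA, at 122 to 167 CPM over the groups. Receptor status was not tested. Of the markers of other cells, CD3E was at 0 in all groups, DCN, LUM, COL3A1 and PTPRC were at most at 0.215 CPM, and sums of group means lay between 45.7 and 165 CPM for fibroblast, 2.78 and 102 for endothelial and 0.347 and 38.1 for leukocyte markers. Of the fibroblast markers, PDGFRA was highest in the MB157 groups, at 27.4 CPM in MB157 iEV and 45.0 in MB157 iSOX2. COL1A1 was highest in the MB157R groups, at 63.6 CPM in MB157R iEV and 141 in MB157R iN1-ICD, with COL1A2 at 14.1 and 15.7. The endothelial sum stood apart in MB157 iSOX2 through PECAM1, at 94.5 CPM there and at most 0.409 in the other groups. In MB157 iSOX2, CDH5 was at 0.0151 CPM and VWF at 7.76. VWF was at 0.832 to 6.68 CPM in the other groups. The leukocyte sum was set by CD14, at 37.4 CPM in MB157 iEV and 0.338 to 6.98 in the other groups. The part of these markers in the results below was not tested.

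In bulk RNA, a change in the level per cell and a change in the share of cells with a transcript cannot be told apart. Differences between groups were tested with edgeR's quasi-likelihood test on the 6 libraries of each comparison, and a gene was called where its Benjamini-Hochberg adjusted p over all genes tested was under 0.05. Because MB157R iEV and MB157 iEV also serve as the controls of the induction experiments, the comparison of the lines shares libraries with each of the other two, while the SOX2 and N1-ICD inductions share none.

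The promoters of the 9 genes are described first. The RefSeq table of promoters (build GRCh38.p14, the same coordinates as hg38) held 8 of the 9 genes, with BMP7 unmatched. In the 250 bases before each annotated start, both strands were searched for the SMAD motifs GGCGCC and CAGAC, the core motif TGGGAA of RBPJ (the DNA-binding partner of N1-ICD), the SOX core motif CATTGT and the E-box CACGTG, a site of basic helix-loop-helix factors such as MYC with MAX. Of the 35116 windows in the table, 16.4% held GGCGCC, 38.0% CAGAC, 20.8% TGGGAA, 9.3% CATTGT and 6.3% CACGTG. The windows of TGFB1, BMP6, ID1 and ID2 held none of them, and CATTGT was in none of the windows of the 8 genes. The 4 windows below are shown because they hold matches and precede genes whose levels moved with induction. Capitals mark the matches, each on either strand. The window of TGFB2 holds the SMAD motif CAGAC at 243 and at 53 bases before the start, the latter sharing 1 base with an E-box that begins 49 bases before it. The window of TGFBR2 holds the RBPJ core 195 bases before the upstream one of its 2 starts in the table. For BMP4, the window before the most upstream of the 3 starts that the table gives for it holds GGCGCC 232 bases, the other SMAD motif 181 bases and the RBPJ core 93 bases before that start. The window of ID3 holds CAGAC 147 bases before its start. Another window of BMP4, not shown, held an E-box and a CAGAC. The remaining window of BMP4 held none of the motifs. The other window of TGFBR2, which ends just before the gene start given below, held none either.
TGFB2, chr1:218345086-218345335 (plus strand): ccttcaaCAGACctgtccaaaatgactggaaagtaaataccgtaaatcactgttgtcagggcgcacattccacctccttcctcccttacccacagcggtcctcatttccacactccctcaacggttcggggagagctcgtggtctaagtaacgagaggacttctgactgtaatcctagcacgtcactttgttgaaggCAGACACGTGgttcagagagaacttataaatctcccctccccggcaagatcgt
TGFBR2, chr3:30606106-30606355 (plus strand): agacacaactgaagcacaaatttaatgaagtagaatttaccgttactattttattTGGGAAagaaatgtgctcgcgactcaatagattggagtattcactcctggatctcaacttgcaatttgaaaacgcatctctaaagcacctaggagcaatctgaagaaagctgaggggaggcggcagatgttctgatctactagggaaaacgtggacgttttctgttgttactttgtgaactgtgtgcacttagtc
BMP4, chr14:53955051-53955300 (minus strand): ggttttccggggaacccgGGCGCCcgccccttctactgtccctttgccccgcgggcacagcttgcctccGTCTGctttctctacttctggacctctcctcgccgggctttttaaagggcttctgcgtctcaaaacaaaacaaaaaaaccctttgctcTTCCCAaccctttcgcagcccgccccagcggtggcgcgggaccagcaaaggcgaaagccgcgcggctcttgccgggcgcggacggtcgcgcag
ID3, chr1:23559502-23559751 (minus strand): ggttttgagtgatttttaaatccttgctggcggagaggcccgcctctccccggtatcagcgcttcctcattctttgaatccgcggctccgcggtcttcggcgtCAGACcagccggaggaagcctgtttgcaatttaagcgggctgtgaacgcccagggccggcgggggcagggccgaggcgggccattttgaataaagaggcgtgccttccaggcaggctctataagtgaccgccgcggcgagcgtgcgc
A match of letters this short is a description of the window and no evidence of binding.

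Of the TGF-β ligand genes, TGFB1 differed little between the groups and TGFB2 more. TGFB1, on chromosome 19 (hg38, 41301587 to 41353922, minus strand, 7 exons), was at 46.1, 42.1 and 37.5 CPM in MB157 iEV, at 40.1, 47.8 and 44.3 in MB157 iSOX2, at 63.2, 67.1 and 62.7 in MB157R iEV and at 63.1, 57.6 and 58.0 in MB157R iN1-ICD. All 6 MB157R libraries were above all 6 MB157 libraries, and within each line the groups overlapped. The resistant cells were higher by 0.62 on the log2 scale (SE 0.06, adjusted p = 7.9e-07, edgeR's quasi-likelihood test), or 1.53-fold. Neither induction moved TGFB1 past the threshold: the log2 difference was 0.08 with SOX2 (95% interval -0.07 to 0.23, adjusted p = 0.330) and -0.10 with N1-ICD (95% interval -0.21 to 0.01, adjusted p = 0.0993).

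TGFB2, on chromosome 1 (218345336 to 218444619, plus strand, 7 exons), had close replicates in each group. It was at 62.0, 63.4 and 62.6 CPM in MB157 iEV and at 75.6, 76.4 and 76.9 in MB157 iSOX2. In MB157R iEV it was at 106, 105 and 110 CPM, and in MB157R iN1-ICD at 222, 218 and 203. The 4 groups did not overlap, with MB157 iEV lowest and MB157R iN1-ICD highest. TGFB2 was called higher in all 3 comparisons, by log2 0.77 in resistant cells (SE 0.04, adjusted p = 2.5e-10), by 0.29 with SOX2 (SE 0.03, adjusted p = 1.4e-06) and by 1.01, or 2.01-fold, with N1-ICD (SE 0.04, adjusted p = 1.0e-08).

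TGFBR2, the receptor that both ligands need, differed far more than the ligands. Its gene lies on chromosome 3 (30606601 to 30694142, plus strand, 7 exons). It was at 4.10, 4.58 and 4.02 CPM in MB157 iEV, at 18.9, 19.2 and 17.3 in MB157 iSOX2, at 84.2, 82.2 and 90.3 in MB157R iEV and at 72.6, 75.9 and 73.8 in MB157R iN1-ICD, again with no overlap between the groups. Resistant cells held 20.2-fold more TGFBR2 than MB157 cells with the same empty vector (log2 4.34, SE 0.07, adjusted p = 3.6e-15). SOX2 in MB157 raised it 4.37-fold (log2 2.13, SE 0.08, adjusted p = 1.4e-12), and N1-ICD in MB157R lowered it by 0.20 on the log2 scale (SE 0.05, adjusted p = 0.0030).

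**Figure D1:**
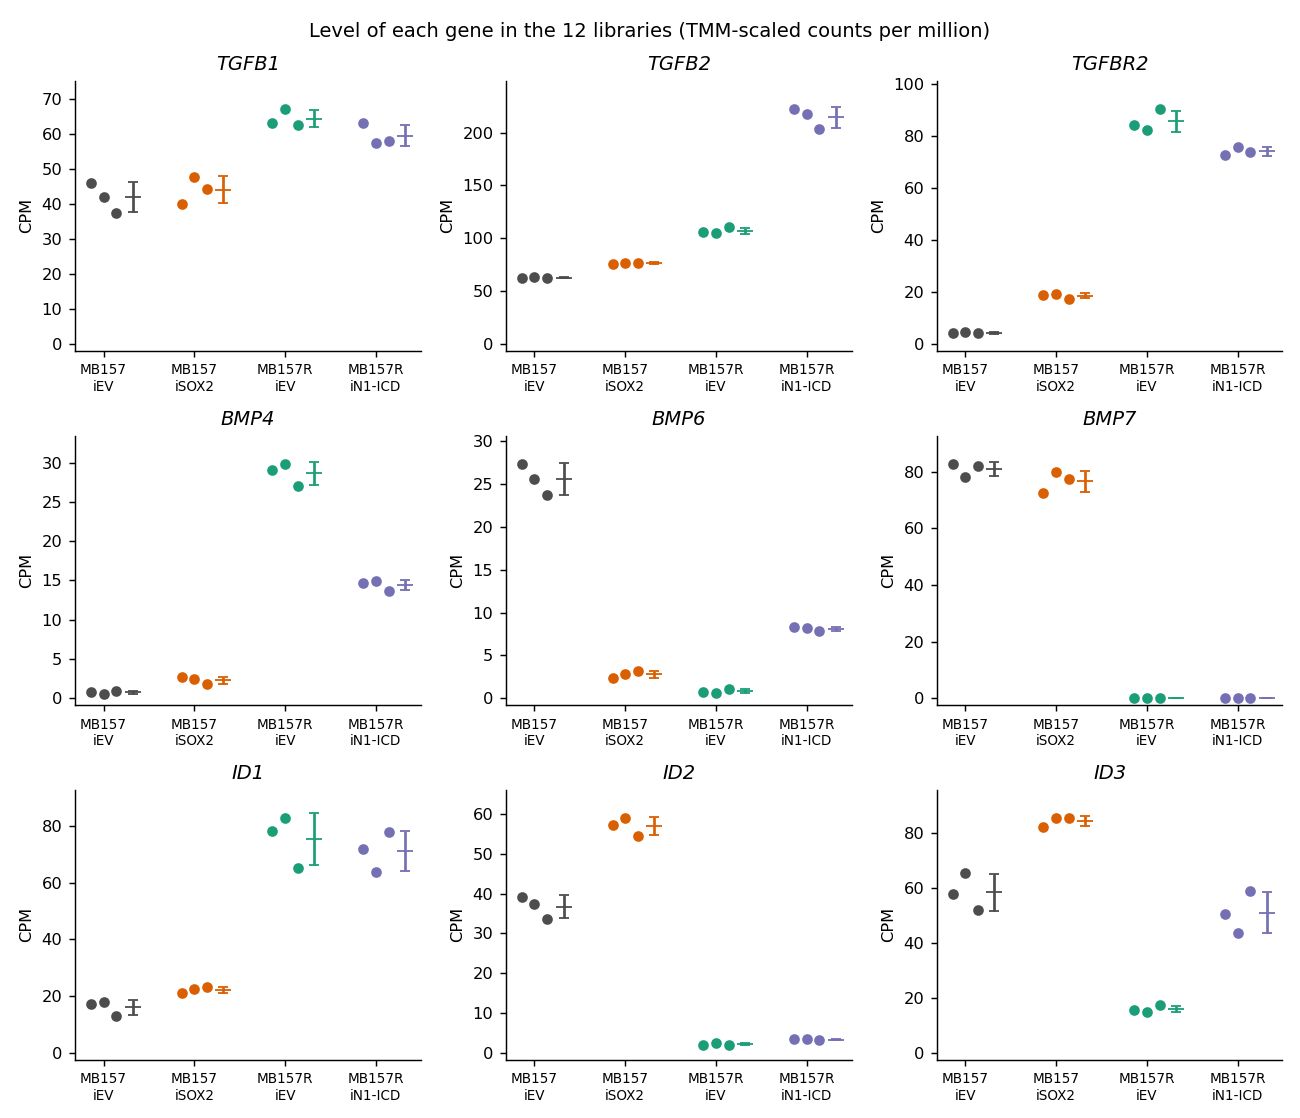
Levels of the 9 genes in TMM-scaled CPM on the vertical axis for the 3 libraries of each of the 4 groups; points are libraries, and the bar beside them is the mean ± SD (n = 3). TGFBR2, BMP4 and ID1 were high in both MB157R groups, BMP7 and ID2 in both MB157 groups, while in MB157R iN1-ICD, BMP6 lay between the MB157 groups and ID3 overlapped MB157 iEV.

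The 3 BMP ligand genes were exchanged between the lines. BMP4, which acts in development and mesenchymal tissues (chromosome 14, 53949736 to 53958761, minus strand, 4 exons), was at 0.801, 0.475 and 0.932 CPM in MB157 iEV. It was at 29.0, 29.9 and 27.0 CPM in MB157R iEV, 38.9-fold higher (log2 5.29, SE 0.13, adjusted p = 3.6e-13). N1-ICD brought it to 14.7, 14.9 and 13.7 CPM, below every MB157R iEV library, a log2 change of -0.98 (SE 0.07, adjusted p = 4.6e-07). With SOX2 it was at 2.65, 2.44 and 1.76 CPM, above all 3 control libraries, but BMP4 was not in the filtered table of the study for that comparison. With a minimum mean count of 5 in place of that table, BMP4 was called higher with SOX2, by log2 1.63 (adjusted p = 6.2e-05, edgeR's quasi-likelihood test).

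BMP6, a ligand of the same subgroup as BMP7 (chromosome 6, 7726099 to 7881728, plus strand, 7 exons), was highest in MB157 iEV, at 27.4, 25.6 and 23.7 CPM. It was at 2.33, 2.78 and 3.21 CPM in MB157 iSOX2 and at 0.688, 0.661 and 1.06 in MB157R iEV. N1-ICD in MB157R brought it to 8.28, 8.18 and 7.80 CPM, between the SOX2 group and MB157 iEV. No 2 groups overlapped. The fall in resistant cells was 31.9-fold (log2 -4.97, SE 0.13, adjusted p = 5.6e-13), the fall with SOX2 9.24-fold (log2 -3.20, SE 0.10, adjusted p = 4.7e-14), and the rise with N1-ICD 10.1-fold (log2 3.32, SE 0.17, adjusted p = 5.0e-08).

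BMP7 (chromosome 20, 57168753 to 57266641, minus strand, 7 exons) was present in one line and without counts in the other. MB157 iEV libraries held 82.8, 78.1 and 81.9 CPM and MB157 iSOX2 libraries 72.5, 79.8 and 77.2, from 9315 and 9939 counts over the 3 libraries. All 6 MB157R libraries held 0 counts. Set against the floor of 3 counts over the group, BMP7 was at least 3569-fold lower in MB157R iEV than in MB157 iEV (adjusted p = 1.4e-14, edgeR's quasi-likelihood test). SOX2 changed it by log2 -0.08 (95% interval -0.16 to 0.01, adjusted p = 0.0969), which did not pass. The difference passed without replicate 2 of MB157 iEV, at -0.10 (adjusted p = 0.0481), or without replicate 2 of MB157 iSOX2, at -0.11 (adjusted p = 0.0458). The nearest genes on each side of BMP7 with a mean of at least 1 CPM over the 12 libraries were chosen after values were seen. Genes silent in all groups were thus left out. In MB157R iEV, CSTF1 was at 38.5 CPM against 91.1 in MB157 iEV, TFAP2C at 58.4 against 203, RAE1 at 50.1 against 148 and RBM38 at 35.7 against 122. These neighbours were between 2.37- and 3.47-fold lower in the resistant line, and what this has to do with BMP7 was not tested.

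ID1, ID2 and ID3 are near relatives with short transcripts, and their levels moved apart between the lines. ID1 (chromosome 20, 31605283 to 31606515, plus strand, 2 exons) was at 17.3, 17.8 and 13.0 CPM in MB157 iEV and at 21.1, 22.4 and 23.1 in MB157 iSOX2. It was at 78.5, 82.9 and 65.2 CPM in MB157R iEV and at 71.9, 63.7 and 78.0 in MB157R iN1-ICD, and these last groups overlapped. Resistant cells held 4.70-fold more ID1 (log2 2.24, SE 0.11, adjusted p = 3.0e-10). SOX2 raised it by log2 0.48 (SE 0.09, adjusted p = 2.2e-04). With N1-ICD the difference was -0.07 (95% interval -0.28 to 0.13, adjusted p = 0.508), so that it was not detected.

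ID2 (chromosome 2, 8678845 to 8684461, plus strand, 3 exons) went the other way. It was at 39.3, 37.4 and 33.5 CPM in MB157 iEV, at 57.3, 59.0 and 54.5 in MB157 iSOX2, at 1.93, 2.42 and 1.93 in MB157R iEV and at 3.37, 3.37 and 3.19 in MB157R iN1-ICD. No groups overlapped, and the MB157R groups lay far below both MB157 groups. ID2 fell 17.5-fold in resistant cells (log2 -4.13, SE 0.10, adjusted p = 2.0e-13), and rose by log2 0.64 with SOX2 (SE 0.05, adjusted p = 3.0e-08) and by 0.67 with N1-ICD (SE 0.15, adjusted p = 0.0026). The rise with N1-ICD, 1.58-fold, started from 2.09 ± 0.285 CPM and left ID2 at 3.31 ± 0.108 CPM (SD, n = 3).

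ID3 (chromosome 1, 23557926 to 23559501, minus strand, 3 exons) was at 57.6, 65.4 and 52.1 CPM in MB157 iEV, at 82.2, 85.4 and 85.4 in MB157 iSOX2, at 15.7, 14.8 and 17.3 in MB157R iEV and at 50.5, 43.7 and 58.9 in MB157R iN1-ICD. Its levels with N1-ICD overlapped those of MB157 iEV, a pair that was not tested. ID3 was 3.67-fold lower in resistant cells (log2 -1.87, SE 0.08, adjusted p = 1.1e-10), 1.44-fold higher with SOX2 (log2 0.53, SE 0.06, adjusted p = 7.1e-07) and 3.20-fold higher with N1-ICD (log2 1.69, SE 0.10, adjusted p = 1.7e-07).

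**Figure D2:**
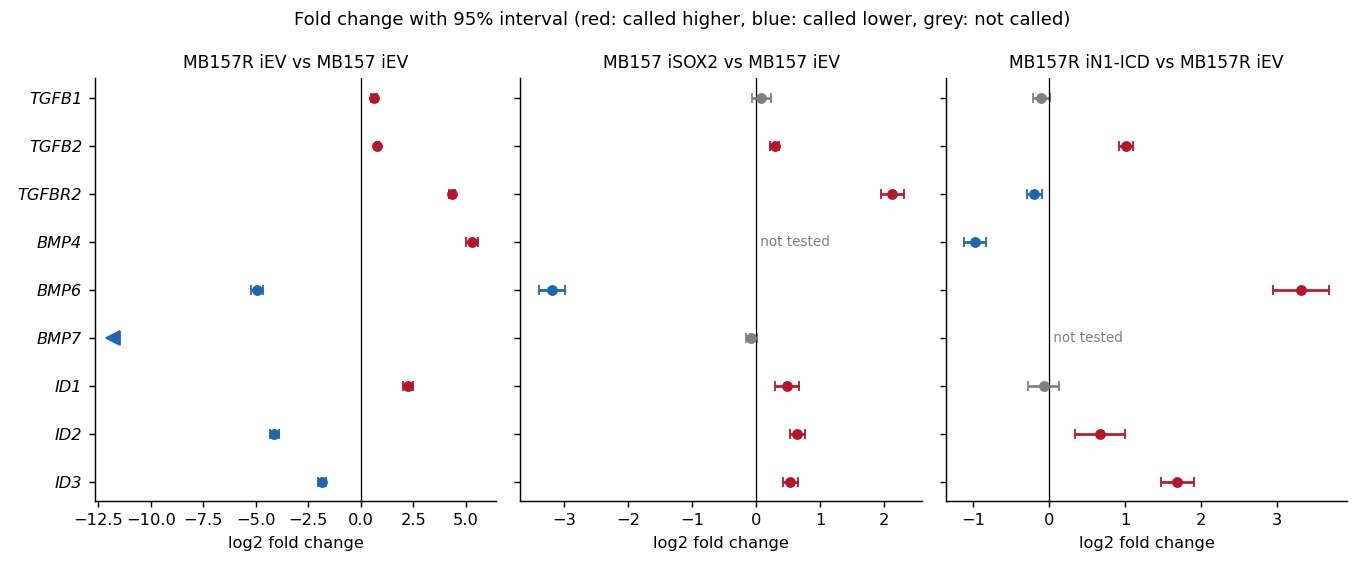
Log2 fold change of each gene with its 95% interval in the 3 comparisons; the horizontal axes differ between the panels. Red points were called higher, blue lower and grey not called; the triangle gives BMP7 at its bound, and genes without a test are marked. ID1, ID2 and ID3 were all called higher with SOX2, while N1-ICD raised ID2 and ID3 and did not pass for ID1.

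In the comparison of the lines, all 9 genes were called and none overlapped between the groups, 5 higher and 4 lower in MB157R iEV. There 90.2% of the 11435 genes tested were called, 45.0% higher and 45.3% lower, and the groups did not overlap for 90.9% of them, so that neither a call nor the lack of overlap sets these genes apart. Changes of at least 2-fold were fewer, at 38.9% of all genes, and were called for 7 of the 9. Because the 9 were chosen with earlier results of these data known, this does not set them apart either. With SOX2, 6 of 8 tested genes were called, 5 higher (TGFB2, TGFBR2, ID1, ID2 and ID3) and 1 lower (BMP6), against 66.4% of 10904 genes, 32.5% higher and 33.9% lower. The groups did not overlap for 6 of the 8, against 70.1% of all genes. Only TGFBR2 and BMP6 of the 8 reached 2-fold, as did 6.05% of all genes. The choice of the genes with earlier results known limits this comparison in the same way. With N1-ICD, 6 of 8 were called, 4 higher (TGFB2, BMP6, ID2 and ID3) and 2 lower (TGFBR2 and BMP4), against 59.1% of 11210 genes, 29.8% higher and 29.3% lower. Again the groups did not overlap for 6 of the 8, against 65.2% of all genes. TGFB2, BMP6 and ID3 reached 2-fold, as did 5.17% of all genes. All of them are in the NOTCH signature of the paper, which was built in part from this same comparison. Their number is therefore no independent result. Of the genes called in both inductions, TGFB2, ID2 and ID3 rose in both, whereas TGFBR2 and BMP6 went in opposite directions; over all 10024 genes tested in both, 20.7% were called in the same direction and 19.2% in opposite directions. The median log2 fold change of all genes tested was 0.00 in each comparison.

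To set the genes beside each other, CPM was divided by the length of the GENCODE v44 canonical transcript in kilobases. On this scale per length the order in MB157 iEV was ID3 (61.5 ± 7.04 CPM per kilobase, SD, n = 3), ID2 (28.3 ± 2.26), BMP7 (20.1 ± 0.623), ID1 (16.3 ± 2.70), TGFB1 (15.1 ± 1.55), TGFB2 (10.7 ± 0.117), BMP6 (6.76 ± 0.481), TGFBR2 (0.935 ± 0.0671) and BMP4 (0.381 ± 0.122). Only ID1 and TGFB1 overlapped as neighbours. In MB157R iEV, ID1 led at 76.8 ± 9.37 CPM per kilobase, followed by TGFB1 at 23.1 ± 0.874. TGFBR2 (18.9 ± 0.928), TGFB2 (18.2 ± 0.497) and ID3 (16.8 ± 1.29) came next, and in that row each overlapped the one after it. BMP4 (14.8 ± 0.748), ID2 (1.61 ± 0.219), BMP6 (0.212 ± 0.0589) and BMP7 (0) closed the order. With N1-ICD no neighbours overlapped, and ID3 (53.7 ± 7.98 CPM per kilobase) took the second place behind ID1 (72.4 ± 7.29), with TGFB2 (36.5 ± 1.68) next. With SOX2 the order had no overlapping neighbours either, and it began with ID3 (88.8 ± 1.94), ID2 (43.8 ± 1.76) and ID1 (22.6 ± 1.00).

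The mix of ID transcripts differed between the lines; sums and shares are given as descriptions, with no test. Adding ID4, the fourth family gene, ID transcripts summed to 124 ± 11.5 CPM per kilobase in MB157 iEV, 169 ± 3.23 in MB157 iSOX2, 95.2 ± 8.23 in MB157R iEV and 129 ± 15.1 in MB157R iN1-ICD (SD, n = 3). In MB157 iEV, ID3 made up 49.5% ± 2.06 of the sum, ID2 22.8% ± 1.10, ID4 14.6% ± 1.27 and ID1 13.1% ± 1.06. In MB157R iEV, ID1 made up 80.5% ± 3.00, ID3 17.8% ± 2.99 and ID2 1.69% ± 0.162, and ID4 was near 0, at 0.0732 CPM against 69.9 in MB157 iEV. In MB157 iSOX2, ID3 made up 52.5% ± 0.589, ID2 25.9% ± 0.970, ID1 13.4% ± 0.478 and ID4 8.26% ± 0.0863, the last below its share in MB157 iEV. N1-ICD moved the mix of MB157R to 56.3% ± 1.03 ID1 and 41.6% ± 1.31 ID3, with ID2 at 2.55 ± 0.0828 CPM per kilobase.

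Transcripts of BMP4, BMP6 and BMP7, with BMP2 added, also differed in makeup between the lines. Other BMP genes were left out of the sum. Among them, BMP8B was at 9.18 CPM in MB157 iEV, 9.11 in MB157 iSOX2, 0.577 in MB157R iEV and 0.972 in MB157R iN1-ICD. BMP3, also left out, was at 0, 4.02, 2.70 and 2.60 CPM in the same order. In MB157 iEV, BMP7 made up 73.8% ± 1.09 and BMP6 24.8% ± 1.46 of the sum of BMP2, BMP4, BMP6 and BMP7, which was 27.3 ± 0.901 CPM per kilobase. In MB157R iEV, BMP4 made up 78.7% ± 0.633 and BMP2 20.2% ± 0.308 of a sum of 18.8 ± 0.802. In MB157 iSOX2, BMP7 held 90.5% ± 0.836 of 21.0 ± 0.906 CPM per kilobase, with BMP6 at 3.48%. In MB157R iN1-ICD, BMP4 held 51.1% ± 1.76, BMP2 34.3% ± 1.95 and BMP6 14.6% ± 0.206 of 14.6 ± 0.289.

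**Figure D3:**
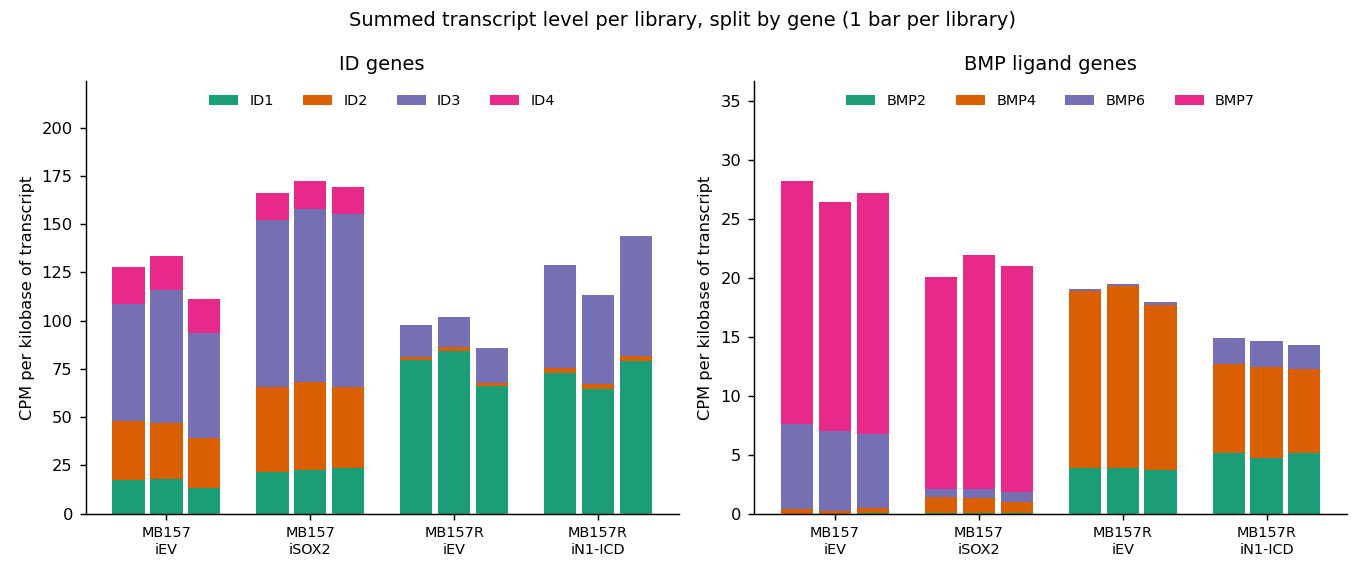
Summed level of the 4 ID genes (left) and of the 4 BMP ligand genes BMP2, BMP4, BMP6 and BMP7 (right) in CPM per kilobase of transcript, 1 stacked bar per library, 3 libraries per group. ID1 filled most of the bar in both MB157R groups, and ID3 was the largest part in both MB157 groups; BMP7 filled most of the bar in MB157 cells and BMP4 in MB157R iEV.

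Across the 12 libraries, the gene most like each of the 9 in log2(CPM + 0.5) was found among 14265 genes. The libraries are 4 groups of 3, so that these Pearson coefficients mostly describe 4 group means and carry no test. For genes that split the lines many others were alike: 3088 genes had a coefficient of at least 0.95 with BMP7 (ABCA3 most, 1.000), 2732 with ID2 (MFAP3L, 0.999), 2141 with ID1 (CLTA, 0.996) and 1430 with BMP4 (MNAT1, 0.997). TGFBR2 had 646 (ADAMTS15, 0.999), TGFB2 313 (IGFBP3, 0.998) and TGFB1 190 (C15orf40, 0.974). The patterns of BMP6 and ID3 were shared by few genes, 42 (ARHGEF10L, 0.987) and 50 (CPT1A, 0.987).

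The rest of the pathway was described by lists of genes, read by their counts, beside the shares of all genes called that are given above, and by their median, beside that of all genes (0.00). A gene can pass the filter of the study when it is high in only 1 group of a comparison. The tested genes are therefore not a fair sample of a list. The lists also share genes (PMEPA1, SKIL, LTBP2, SMAD6, SMAD7, SMAD9, BAMBI and NOG), so that their counts and medians are not independent. Of 27 other family ligands, 10 were tested between the lines and all were called, 4 higher and 6 lower in MB157R iEV, with a median log2 fold change of -1.59. Among them BMP2 was at 13.5 CPM against 0.0488 and INHBA, the subunit of activin A, at 349 against 3.32, while the Nodal antagonists LEFTY2, at least 672-fold lower (0 against 15.4 CPM), and LEFTY1 (0.0316 against 4.99) were lower. The LEFTY genes are near-identical copies between which reads may be split, so that their separate values are uncertain. With SOX2, 2 of 8 ligand genes were called higher and 3 lower (median -0.18), LEFTY2 rising 3.01-fold and INHBB, an activin subunit, falling 3.14-fold. LEFTY1, the near-identical copy of LEFTY2, was called lower, at 2.61 CPM in MB157 iSOX2 against 4.99 in MB157 iEV. With N1-ICD, 5 of 7 were higher and 2 lower (median 0.41), led by INHBE (32.4-fold) and the stress-induced ligand GDF15 (12.9-fold, from 6.85 to 88.3 CPM).

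Receptor genes were called in both directions. Of 11 other receptor or co-receptor genes tested between the lines, 5 were called higher and 6 lower (median -0.17). TGFBR1, the type I partner of TGFBR2, was at 53.7 CPM in MB157R iEV against 128 in MB157 iEV, and the BMP type I receptor gene ACVR1 was 2.77-fold higher. With SOX2, 6 of 11 receptor genes were higher and 4 lower (median 0.13), the type II activin receptor ACVR2A rising 2.47-fold and the co-receptors RGMA and ENG falling 2.23- and 2.22-fold. With N1-ICD, 2 of 10 were higher and 5 lower (median -0.14), all by less than 2-fold. SMAD3, which carries the TGF-β signal, was at 397 CPM in resistant cells against 42.1, 9.42-fold higher, in a list of 7 tested SMAD genes of which 4 were called higher and 2 lower (median 0.24). With SOX2, 4 of 7 SMAD genes were higher and 2 lower (median 0.10), SMAD3 by log2 0.34. With N1-ICD, 1 of 7 was higher and 2 lower (median -0.06), and that 1, SMAD3 at log2 0.13, overlapped between the groups.

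Genes on the list of latent TGF-β binding proteins, their relatives and activators were mostly higher in the resistant line. Of 11 tested, 10 were called higher and none lower (median 1.72). ITGB6, a subunit of an integrin that activates TGF-β, had 0 counts in MB157 iEV and 340 CPM in MB157R iEV, at least 13074-fold higher, and its partner ITGAV was 6.38-fold higher. With SOX2, 7 of 8 were higher and none lower (median 0.22), with ITGB8 rising 2.28-fold and ITGAV 1.83-fold. With N1-ICD, 3 of 11 were higher and 4 lower (median -0.05), and ITGB6 was at 168 CPM against 340.

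Extracellular antagonists, which hold ligands off their receptors, and intracellular brakes were called in both directions. Between the lines, 6 of 9 antagonist genes were higher and 3 lower (median 1.62). FST, which binds activin, was at 151 CPM against 0.165 and NOG, which binds BMPs, at 14.4 against 0.0266. The matrix proteoglycan gene BGN was at 0.709 against 75.3, and the BMP antagonist gene SOSTDC1 was at least 289-fold lower. With SOX2, 4 of 7 were higher and 2 lower (median 0.23), FSTL1 rising 2.24-fold. With N1-ICD, 5 of 9 were higher and 3 lower (median 0.24), with GREM1 rising 4.53-fold, BGN 15.4-fold and NOG falling 2.29-fold. Of 13 genes listed as brakes, 8 were higher and 5 lower between the lines (median 0.71), PMEPA1, a SMAD-binding membrane protein, 9.01-fold higher. USP15, 1.56-fold lower, is on this list but is also known to promote the signal, so that the counts are not of brakes alone. With SOX2, 6 of the 13 were higher and 2 lower (median 0.09), and with N1-ICD 5 and 6 (median -0.08).

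Genes that TGF-β is known to induce were mostly higher in resistant cells, 16 of 18 tested, with 1 lower and a median log2 fold change of 1.53. TGFBI, a matrix protein named for its induction by TGF-β, was at 446 CPM against 1.09. CDKN2B, a cell cycle inhibitor, was at 35.2 against 45.2. CTGF and CYR61, which were not in the filtered tables of the study under these or their newer symbols and had no test here, were at 16.4 and 93.7 CPM in MB157R iEV against 79.6 and 45.3 in MB157 iEV. With SOX2, 7 of 14 were higher and 6 lower (median 0.05), and CDKN1A, another cell cycle inhibitor, rose 3.96-fold. With N1-ICD, 12 of 18 were higher and 5 lower (median 0.28), with fibronectin (FN1) rising 3.86-fold and PDGFB falling 2.51-fold. The fibroblast marker COL1A1, which is also on this list, was at 18.1 CPM in MB157 iEV, 26.9 in MB157 iSOX2, 63.6 in MB157R iEV and 141 in MB157R iN1-ICD. In the same order of groups, COL1A2 was at 0.0422, 0.0306, 14.1 and 15.7 CPM and PDGFRB at 0.116, 0.103, 2.26 and 4.53. PDGFRA was lower in MB157R, at 27.4, 45.0, 3.20 and 3.84 CPM. DCN, LUM and COL3A1 were at most at 0.214 CPM in any group.

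BMP response genes other than ID1 to ID3 were also mostly higher in resistant cells, and were mixed in both inductions. Between the lines, 8 of 10 were higher and 2 lower (median 1.21): the homeobox gene MSX2 had 1596 counts over the 3 libraries against 2, and ID4 and BAMBI, a pseudoreceptor, were lower, BAMBI 3.91-fold. With SOX2, 2 of 6 were higher and 3 lower (median -0.21), led by DLX5, 9.29-fold higher. With N1-ICD, 3 of 10 were higher and 3 lower (median -0.11), BAMBI rising 3.82-fold and RUNX2 1.89-fold.

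Of the genes of ID protein partners, 7 were tested between the lines, of which 5 were higher and 2 lower (median 1.07). The E protein gene TCF4 was at 20.4 CPM in MB157R iEV against 0.0161 in MB157 iEV, where 2 counts lie behind the value, and RB1, the retinoblastoma protein that ID2 binds, was 9.35-fold lower. With SOX2, 1 of 5 was higher (TCF12, an E protein gene, 1.75-fold) and 1 lower (ETS1, 2.68-fold), with a median of 0.00. With N1-ICD, 2 of 6 were higher and 4 lower (median -0.12), ETS1 rising 2.05-fold and TCF3, another E protein gene, falling 1.31-fold.

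**Figure D4:**
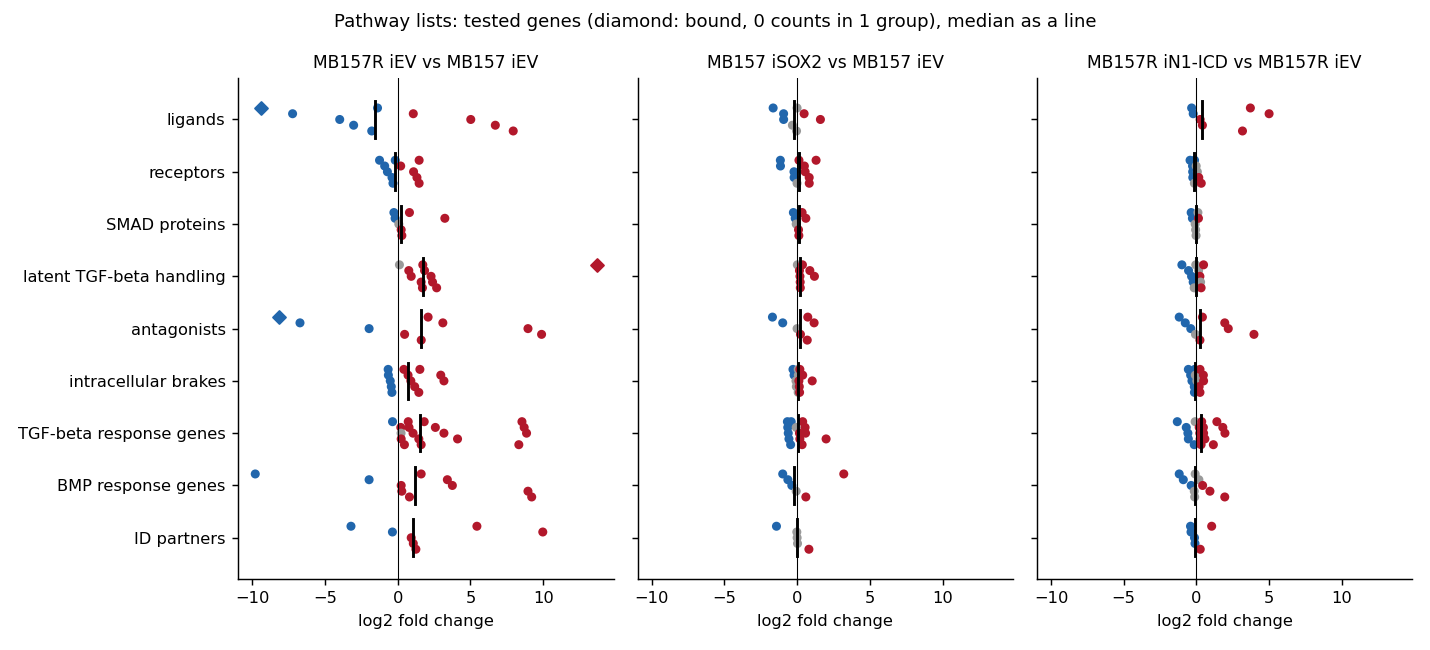
Log2 fold change of each tested gene of the 9 pathway lists in the 3 comparisons, on a shared axis; red was called higher, blue lower and grey not called, diamonds are bounds for genes with 0 counts in 1 group, and black lines are list medians. The medians lay between -1.59 and 1.72 between the lines and between -0.21 and 0.41 in both inductions.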

How the data were processed

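RNA was sequenced from 4 groups of 3 libraries. The authors mapped reads to hg38 with STAR and counted them with Salmon, with a stranded setting; the gene annotation and the Salmon version are not given in the sources used here. The deposited count table gives estimated counts for all 12 libraries, of which 88% of values were whole at a tolerance of 1e-06, and the authors' 3 tables of log2 CPM (edgeR 3.42.4, limma 3.56.2) list the genes that passed their filter in each comparison. The log2 values served here to give the genes tested and for a check against the counts. Rebuilt from the counts with totals over the filtered genes, they differed by at most 5.0e-14. With totals over the whole table, as in the tests here, they differed by up to 0.114.

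Estimated counts were rounded and tested with edgeR's quasi-likelihood test (edgeR 4.0.16, R 4.3.3) on 6 libraries per comparison, scaled by TMM, with library sizes summed over the whole table and replicate numbers left out of the model. Calls were made at an adjusted p (Benjamini-Hochberg, all genes tested) under 0.05. The test was run on simulated data first. As alternatives, scaling was changed to RLE or to totals, the filter to a minimum mean count of 5 or to none, and the tool to limma-voom (limma 3.58.1) or DESeq2 1.42.0; all 12 libraries were also fitted together, a replicate block was added, and each library was left out in turn. The p-values measure the spread between libraries, and no library repeated another. The 9 genes and the lists were chosen with earlier results of these data known. Named beyond the 9 are, per list and comparison, up to 2 called genes per direction with the largest changes and a mean of at least 1 CPM, the gene most like each of the 9, and SOX2 and NOTCH1; the text gives a part of these. Outside this rule it names cell type markers, BMP2 and ID4 as family members, and, chosen after their values were seen, genes near BMP7 and CTGF and CYR61.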

Additional observations from a re-analysis of the deposited data

How the results depend on the processing

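In the comparison of the lines all 9 genes were called under every alternative run and without each library. With SOX2 the count of called genes lay between 6 and 7 of the 8 or 9 tested, and without 1 library in turn between 6 and 7. BMP7 was the gene that passed without replicate 2 of MB157 iEV or of MB157 iSOX2, and BMP4 was the gene added with a minimum mean count of 5 or with no filter. With N1-ICD the count lay between 6 and 7. There TGFB1 passed with no filter, at -0.13 (adjusted p = 0.0484, edgeR's quasi-likelihood test), and without replicate 1 of MB157R iN1-ICD, at -0.14 (adjusted p = 0.0354). No direction reversed. The cause of these changes was not tested.

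Replicate numbers of the labels did not pair the libraries: across 15220 genes the correlation of deviations from the group means lay between -0.186 and 0.100. With the replicate block the calls were 9, 6 and 6, as without it.

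The 3 libraries per group and 1 line of each kind limit what the differences between lines say about resistance. Levels under about 1 CPM, such as BMP4 in MB157 iEV (84 counts over 3 libraries) and BMP6 in MB157R iEV (108 counts), rest on few counts.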
